A study of Mus musculus with 27 samples.

Results

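The nuclear genes of the mitochondrial respiratory chain were followed through Prx1-derived cells of mouse muscle, periosteum and bone marrow. They were taken by symbol as all listed genes beginning with Nduf, Uqcr or Cox4 to Cox8, together with Sdha, Sdhb, Sdhc and Sdhd, without pseudogene symbols. The rule found 75 of the 30153 listed genes, and all 75 are annotated as protein coding in GENCODE M21 (GRCm38). They comprised 36 subunits of complex I, 7 complex I assembly factors (Ndufaf1 to Ndufaf7), 4 subunits of complex II, 8 of complex III, 10 subunits of complex IV found in most tissues, 7 subunits of complex IV with restricted expression, and a remaining group of 3 with Ndufa4, its relative Ndufa4l2 and Cox7a2l. No measured value entered the rule.

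The respiratory chain passes electrons from NADH through complex I, or from succinate through complex II, to complex III, cytochrome c and complex IV, where oxygen is reduced, and the proton gradient made on the way drives ATP synthase. Most subunits are encoded in the nucleus, while the mitochondrial genome encodes a small core, so the complexes are built from transcripts of both genomes. Complex IV has paired nuclear subunits: Cox6a2, Cox7a1 and Cox8b are the forms of heart and skeletal muscle, Cox6a1, Cox7a2 and Cox8a are found in most other tissues, and Cox4i2 and Ndufa4l2 are known as hypoxia-responsive members.

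Cells positive for tdTomato and negative for CD45 came from the hindlimbs of Prx1-CreER/Ai14/Rag1 mice, male and female, aged 8 to 12 weeks, which received 2 tamoxifen injections and were harvested 3 days after the last. In this strain CreER is driven by the Prx1 promoter, the Ai14 reporter marks those cells and their progeny with tdTomato, and the Rag1 mutation leaves the animals without mature lymphocytes. Every group carried the same alleles and treatment, and no untreated group was analysed here. Each tissue was sorted into P1 (CD105- CD200+), the population the study treats as skeletal stem cells, P2, negative for both markers (CD105- CD200-), and P3, positive for CD105 with CD200 either way, with 3 libraries for each of the 9 groups and 27 in all. Muscle was digested for 60 min and periosteum for 20 min, whereas bone marrow was flushed, so that tissue and cell isolation cannot be told apart. The series states that tissues came from the same animals but the labels do not say which animal gave which library, so p-values measure the spread between libraries taken as independent. In sorted bulk samples, fewer cells of a type and less RNA per cell cannot be told apart.

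The values are normalized counts from the authors' table, and they summed to between 8631881 and 26230908 in a library, with a bone marrow P3 library lowest and bone marrow P2 and periosteum P2 highest. Over the genes tested, replicates of periosteum correlated at r = 0.631 to 0.827, those of bone marrow at 0.767 to 0.935 and those of muscle at 0.862 to 0.955, so periosteum carried the widest spread. The marker genes of the sorted cells were at uneven levels. A list of 8 mesenchymal markers (Prrx1, Pdgfra, Pdgfrb, Col1a1, Col1a2, Col3a1, Dcn and Lum) held 3.68% to 4.28% of the total in muscle P1, 8.95% to 15.3% in periosteum P1 and 27.2% to 40.0% in bone marrow P1, but 0.722% to 1.38%, 0.153% to 0.674% and 0.0105% to 0.0456% in the P2 groups of the same tissues. A list of 15 muscle fibre genes, Acta1 and Ckm among them, held 15.0% to 18.9% of the total in muscle P2, against 0.261% to 0.520% in muscle P1 and 0.0177% to 0.0373% in muscle P3. A list of 10 erythroid genes, globins included, held 45.7% to 49.0% of the total in bone marrow P2 and 24.8% to 39.8% in periosteum P2. These lists moved with the P2 groups, and their part in the differences described below was not tested.

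The limma model took the log2 of each value after 1 was added, gave every group its own mean and covered 18442 genes that reached 10 in at least 3 libraries. A gene was called at an adjusted p below 0.05 together with an absolute log2 fold change above 1.5, and "rose" and "fell" are used only of called genes. A gene that was not called is not thereby shown to be unchanged. Of the 75 respiratory chain genes, 74 passed the filter, while Cox8c, a testis form, did not. Of the 75, 59 were at 10 or more in all 27 libraries.

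The members stood highest in muscle P2. There the summed value of the 75 genes was 2.59% to 3.09% of the library, compared with 0.842% to 1.05% in muscle P1 and 0.616% to 0.757% in muscle P3. The periosteum groups ran from 0.536% to 1.21% and the bone marrow groups from 0.367% to 1.65%. No library outside muscle P2 reached the muscle P2 range. Of the 74 genes tested, 63 had their highest group mean in muscle P2, a group that was highest for 16.4% of all genes tested.

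**Figure D1:**
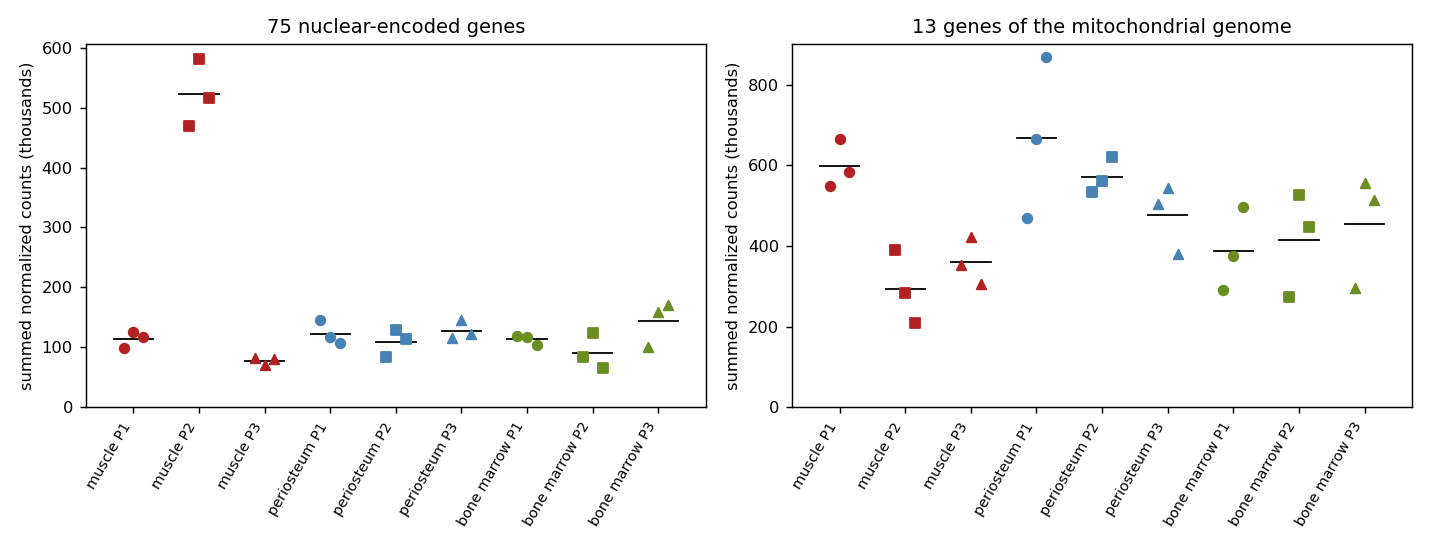
Summed normalized counts of the 75 nuclear-encoded genes (left) and of the 13 protein-coding genes of the mitochondrial genome (right), each point a library, the bar the mean of 3, circles P1, squares P2 and triangles P3. The 3 muscle P2 libraries stand above all others on the left, and the lowest library on the right is one of them.

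Between muscle P2 and muscle P1, 48 of the 74 genes rose and 2 fell, whereas 4.62% of all genes tested were called higher and 3.59% lower. The median log2 fold change was 2.21 for the 74 genes and -0.24 for all genes. In 63 of the 74 all 3 P2 libraries lay above all 3 P1 libraries, an arrangement found in 16.9% of all genes, and in 4 they lay below. With every library scaled to the same total the median of all genes shifted to -0.77 and that of the 74 genes to 1.58, which placed them 2.35 above all genes, compared with 2.44 before scaling. In that scaling 34 of the 74 genes were called, 30 of them higher. Of all 18442 genes tested, 1855 were called, 496 of them higher. Cox6b1, Ndufv1 and Uqcrc1, called before scaling, then had log2 fold changes of 1.43, 1.16 and 1.28.

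**Figure D2:**
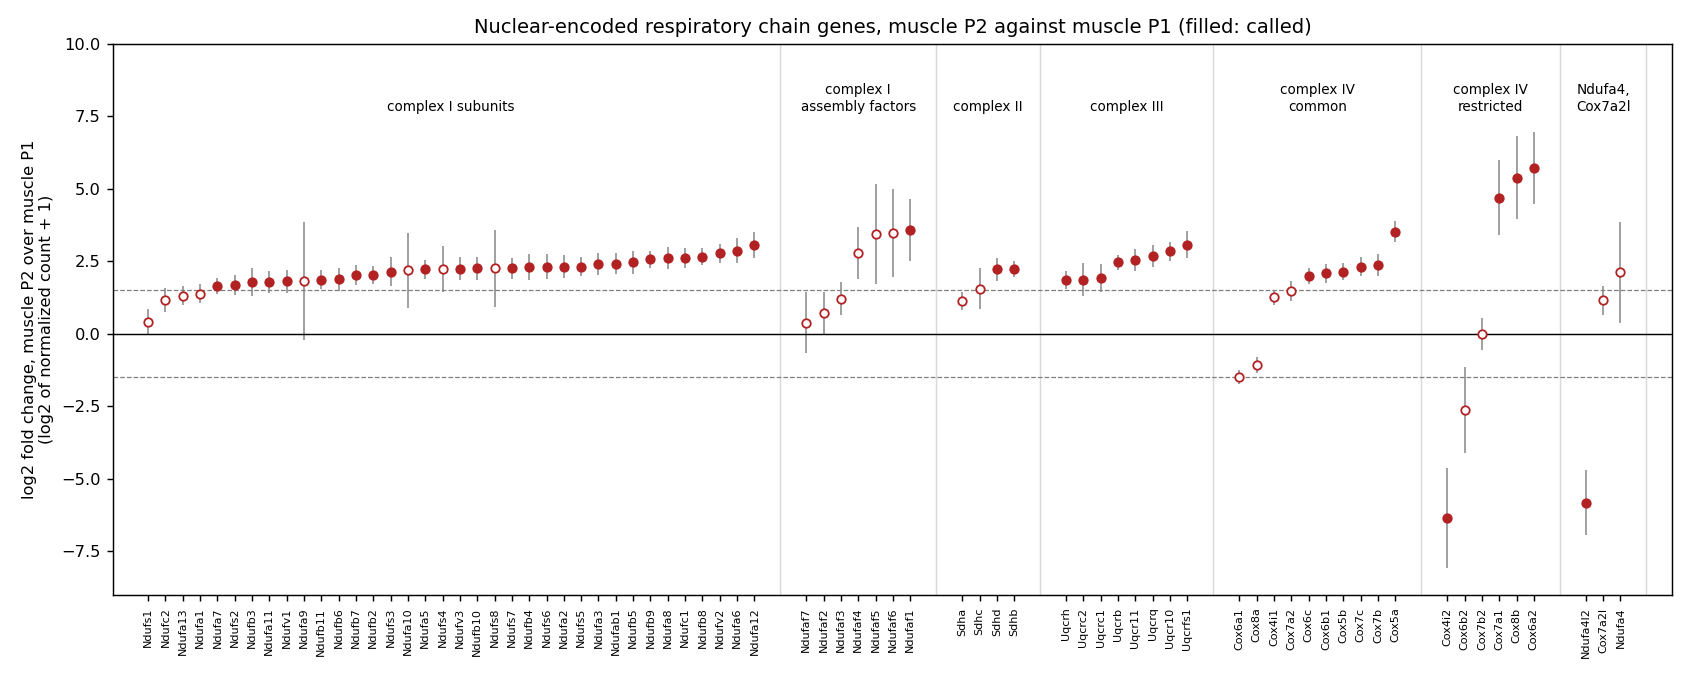
Log2 fold change of each gene in muscle P2 over muscle P1, on log2(normalized count + 1), with its standard error, grouped by complex. Filled points were called, open points were not, and dashed lines mark 1.5 in each direction. Complex III lies entirely above 1.5, and the restricted subunits of complex IV spread from -6.36 to 5.73.

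Complex I, the entry point for electrons from NADH, rose in 28 of its 36 subunits, with none lower and all 36 estimates above 0. The fold changes ran from 0.43 to 3.08 with a median of 2.25. Ndufv1, which carries the NADH binding site, was at 1178, 1612 and 1833 normalized counts in muscle P1 and at 4295, 6599 and 5403 in muscle P2. The groups did not overlap, and the log2 fold change was 1.82 ± 0.39 (SE, limma adjusted p = 0.00336). Ndufs1, the largest iron-sulphur subunit, did not follow at 3954, 1783 and 1429 in P1 and 3492, 2142 and 3284 in P2. Its groups overlapped because of 1 high P1 library, and the estimate was 0.43 ± 0.44 (SE, limma adjusted p = 0.695). Among the 7 assembly factors, which build complex I without remaining in it, only Ndufaf1 was called, although all 7 estimates were above 0 with a median of 2.79. Ndufaf1 was at 127, 111 and 165 in P1 and 814, 1099 and 4614 in P2, a log2 fold change of 3.59 ± 1.08 (SE, limma adjusted p = 0.0366), and its highest P2 library was far above the other two.

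Complex II, which is also the succinate dehydrogenase of the citric acid cycle and has no mitochondrially encoded subunit, rose in 2 of 4 subunits. Sdhb, its iron-sulphur subunit, was at 2269.9, 2881 and 2486 in muscle P1 and 10074, 14782 and 11648 in muscle P2, with a log2 fold change of 2.25 ± 0.29 (SE, limma adjusted p = 1.1e-05). The catalytic flavoprotein Sdha was at 3545, 4119.5 and 4037 and 6342, 11785 and 8274. Here the libraries also did not overlap, but the log2 fold change of 1.13 ± 0.30 (SE, limma adjusted p = 0.0174) was below the size required for a call. Complex III was the one complex in which every subunit rose, 8 of 8, with log2 fold changes of 1.86 to 3.08. Its largest change was in Uqcrfs1, the Rieske iron-sulphur protein, at 1346, 1735 and 1609 in P1 and 11998, 15556 and 12299.9 in P2, or 3.08 ± 0.45 (SE, limma adjusted p = 5.97e-05). Uqcrc1, a core protein, had 1484, 1588 and 1558 and 4775, 6696 and 6524, a log2 fold change of 1.94 ± 0.48 (SE, limma adjusted p = 0.011).

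Complex IV was the complex whose subunits went apart. Of 10 subunits found in most tissues, 6 rose and none was called lower. Cox5a, a matrix-side subunit, had the largest change of these, from 1123, 1558 and 1337 in muscle P1 to 14272, 16326 and 15359 in muscle P2, a log2 fold change of 3.52 ± 0.36 (SE, limma adjusted p = 8.26e-07). Cox6b1 rose by 2.09 ± 0.32 (SE, limma adjusted p = 0.000104) on the log2 scale. Cox4i1, the common form of subunit 4, had an estimate of 1.26 ± 0.24 (SE, limma adjusted p = 0.00133), and Cox7a2 one of 1.49 ± 0.34 (SE, limma adjusted p = 0.00531), both under 1.5. Cox6a1 and Cox8a differed from all of these. Cox6a1 was at 2718, 4085 and 3867 in P1 and at 1170.4, 1335 and 1258 in P2, and Cox8a at 3492, 5459.97 and 4951 and 2154, 2140.1 and 2213. In both genes the 3 P2 libraries lay below the 3 P1 libraries. Their log2 fold changes were -1.48 ± 0.25 (SE, limma adjusted p = 0.000303) and -1.07 ± 0.29 (SE, limma adjusted p = 0.0188), and neither reached the size of a call. Both were called lower with every library scaled to the same total, at -2.14 and -1.73, and after quantile normalization, at -1.88 and -1.55. The members that fell then numbered 4, with Cox4i2 and Ndufa4l2, compared with 2 before.

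The muscle forms of the same subunits showed the largest rises of all 74 genes. Cox6a2 (chromosome 7, 128205435 to 128206387, GRCm38), the muscle partner of Cox6a1, was at 524, 632 and 253 in muscle P1, 20636, 27545 and 22165 in muscle P2 and 20.9, 48.3 and 11.5 in muscle P3. P1 thus lay between P3 and P2 without overlap. The mean in P2 was 23449 ± 3629 (SD, n = 3), and the log2 fold change over P1 was 5.73 ± 1.24 (SE, limma adjusted p = 0.00343). Cox8b (chromosome 7, 140898945 to 140900446), the muscle partner of Cox8a, was at 312, 442 and 213 in P1, 12181, 14243 and 12687 in P2 and 15.2, 9.82 and 11.4 in P3, with the same order of the groups. Its log2 fold change in P2 was 5.39 ± 1.42 (SE, limma adjusted p = 0.016), and the limma adjusted p was 0.0508 without muscle P1 replicate 1 and 0.0656 without muscle P1 replicate 3. Cox7a1 (chromosome 7, 30184144 to 30186078), the muscle partner of Cox7a2, was at 416, 491 and 282, 9088, 11602 and 9672 and 28.8, 35.2 and 51.2 in P1, P2 and P3. The log2 fold change of 4.70 ± 1.30 (SE, limma adjusted p = 0.0223) was called with all 27 libraries, but its adjusted p passed 0.05 without any 1 of the muscle P1 or muscle P2 libraries and in the same-total scaling (limma adjusted p = 0.0533), and was 0.000895 when muscle P1 and P2 were fitted alone. With a pseudocount of 0.1 the calls of Cox6a2, Cox8b and Cox7a1 were lost, at limma adjusted p = 0.0949, 0.185 and 0.173, while the estimates stayed at 5.73, 5.40 and 4.70.

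Read as shares of each pair per kilobase of exon, so that the paired genes can be compared, Cox6a2 made up 94.8%, 95.5% and 94.8% of Cox6a2 plus Cox6a1 in the muscle P2 libraries. It made up 6.34% to 16.6% in muscle P1 and 0.456% to 2.05% in muscle P3. Cox8b held 90.7% to 92.0% of its pair in muscle P2, 6.88% to 13.3% in P1 and 0.702% to 0.995% in P3. Cox7a1 held 81.1% to 83.8% in P2, 24.0% to 40.7% in P1 and 4.73% to 9.13% in P3. The shares in P2 exceeded those of P1 and P3 together by 88.4, 85.3 and 61.9 percentage points for Cox6a2, Cox8b and Cox7a1, and an exact two-sided permutation test over the 9 muscle libraries gave p = 0.0238 for each (adjusted over the 3 shares, 0.0238), the smallest value that 3 libraries against 6 can give. Outside muscle the mean shares per group were at most 0.277%, 1.03% and 2.32%. A share does not depend on how libraries are scaled.

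**Figure D3:**
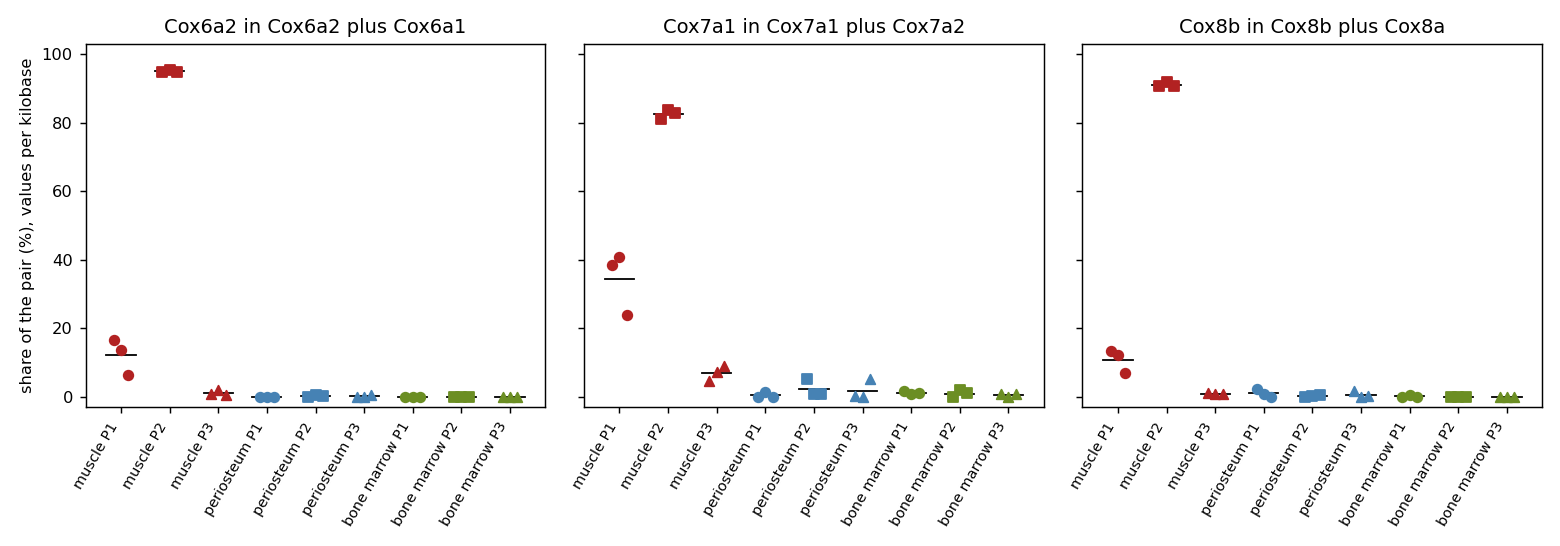
Share (%) of the muscle form in its pair of complex IV subunits, from values per kilobase of exon, for Cox6a2, Cox7a1 and Cox8b in each library, with the bar at the mean of 3. The muscle P2 libraries lie above 80% in every pair, muscle P1 is intermediate and the other groups are at 9.13% or lower.

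The sum of each pair was higher in muscle P2 as well. Per kilobase, Cox6a2 plus Cox6a1 had a mean of 5757 in muscle P1 and 36271 in muscle P2, Cox8b plus Cox8a 8381 and 39718, and Cox7a1 plus Cox7a2 2159 and 22875. Muscle fibre transcripts followed the same order of groups as the muscle isoforms. Acta1, the skeletal muscle actin, was at 22648, 26001 and 14187 in P1, 1030840, 1275860 and 1125390 in P2 and 889, 1730.3 and 757 in P3, and all 15 fibre genes had estimates above 0 for P2 over P1 and below 0 for P3 over P1, with 14 called in the first comparison and 1 in the second. The satellite cell marker Pax7 was at 428, 242 and 228 in P1 and listed at 0 in the 3 P2 libraries. Of the 10 erythroid genes 9 were called higher in P2 than in P1, at 0.943% to 1.60% of the library. Of the 7 cell division genes 4 were called higher, and of the 8 mesenchymal genes 2 were called lower. The part of RNA from other cells in the respiratory chain values was not tested.

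The sequence before the start of transcription is shown for Cox6a1 and for the muscle forms Cox7a1 and Cox8b, since these belong to the pairs whose shares differed between the muscle groups. They are the 250 bases before the start given by RefSeq on GRCm38.p6, 5′ to 3′ on the strand of the gene, and capitals mark motifs found by letter matching on both strands: GCGCANGCG, the site of nuclear respiratory factor 1 (NRF-1), CCGGAAG, the core bound by ETS factors including GABP, AAGGTCA, bound by oestrogen-related receptors (ERR), and AANATGGC, bound by YY1.
Cox6a1 (chr5:115348959-115349208, minus strand): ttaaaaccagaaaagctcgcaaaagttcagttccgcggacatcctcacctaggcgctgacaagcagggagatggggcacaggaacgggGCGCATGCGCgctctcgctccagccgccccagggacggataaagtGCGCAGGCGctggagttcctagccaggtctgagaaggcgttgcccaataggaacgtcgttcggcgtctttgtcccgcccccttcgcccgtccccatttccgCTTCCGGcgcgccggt
Cox7a1 (chr7:30183921-30184170, plus strand): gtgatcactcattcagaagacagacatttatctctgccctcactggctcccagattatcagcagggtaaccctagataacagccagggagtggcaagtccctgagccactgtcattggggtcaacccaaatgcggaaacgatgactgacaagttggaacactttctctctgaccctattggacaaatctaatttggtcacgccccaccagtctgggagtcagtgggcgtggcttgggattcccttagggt
Cox8b (chr7:140900447-140900696, minus strand): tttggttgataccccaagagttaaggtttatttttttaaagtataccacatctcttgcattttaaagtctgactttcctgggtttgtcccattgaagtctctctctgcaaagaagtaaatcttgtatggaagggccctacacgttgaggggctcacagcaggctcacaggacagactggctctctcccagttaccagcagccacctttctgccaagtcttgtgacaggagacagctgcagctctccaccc
The Cox6a1 window held NRF-1 matches beginning 162, 161 and 117 bases before the start, of which the first 2 overlap on opposite strands, and an ETS match 16 bases before it. None of the 4 motifs was in the Cox7a1 and Cox8b windows. The common forms also varied, as the window of Cox7a2, from 250 bases before to 50 after the start, held none of the 4 and that of Cox8a held ETS letters alone, while Cox6a2 had no entry.

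Over the RefSeq windows from 250 bases before to 50 after the start, 60 of the 75 genes had an entry. NRF-1 letters were in 15 of them (25%, against 7.03% of 27025 genes), ETS letters in 12 (20%, against 9.93%), YY1 letters in 14 (23.3%, against 6.96%) and ERR letters in 4 (6.67%, against 5.38%). At least 1 motif was in 36 of 60 windows (60%), against 25.2% of all genes. Sdhd held NRF-1, ETS and ERR letters, and Sdha, Uqcrc1 and Uqcr11 were among the genes with NRF-1 letters (Sdhd and Uqcr11 were chosen after their values were seen). A match describes the letters only.

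The 2 genes that fell in muscle P2 were Cox4i2 and Ndufa4l2. Cox4i2 (chromosome 2, 152754173 to 152765037), the alternative form of subunit 4, was at 166, 274 and 310.04 in muscle P1, 0, 2.89 and 5.66 in P2 and 118, 75.1 and 139 in P3, a log2 fold change of -6.36 ± 1.73 (SE, limma adjusted p = 0.0195) for P2 over P1. Per kilobase it made up 6.43% to 10.5% of Cox4i2 plus Cox4i1 in P1, 4.03% to 7.45% in P3 and at most 0.0955% in P2. Ndufa4l2 (chromosome 10, 127514967 to 127517154) was at 644, 746 and 836 in P1, 0, 35.9 and 60.3 in P2 and 847, 577 and 794 in P3. P1 and P3 overlapped and P2 lay below both, with a log2 fold change of -5.81 ± 1.13 (SE, limma adjusted p = 0.00135) over P1. The Ndufa4l2 call was lost when muscle P1 and P2 were fitted alone (limma adjusted p = 0.0762), and the Cox4i2 call with a pseudocount of 0.1 (limma adjusted p = 0.0613) and without muscle P1 replicate 2 (0.0639), muscle P1 replicate 3 (0.0699) or muscle P2 replicate 1 (0.0909). Cox7a2l, which takes part in joining complexes III and IV, had an estimate of 1.17 ± 0.50 (SE, limma adjusted p = 0.168).

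Of the other nuclear genes of oxidative metabolism, most of those for ATP synthase rose in muscle P2 and most of those in the citric acid cycle, assembly and regulator lists were not called, where 4.62% of all genes were called higher. ATP synthase, which turns the proton gradient into ATP, rose in 14 of the 17 genes listed, with a median log2 fold change of 2.34. Atp5g1, a subunit c gene, was at 2178, 2776 and 2359.6 in P1 and 25499, 35788 and 31288 in P2, or 3.66 ± 0.39 (SE, limma adjusted p = 1.04e-06) on the log2 scale. Cycs, the somatic cytochrome c that carries electrons from complex III to complex IV, was at 1559, 1809 and 2449.7 and 11430.2, 12819 and 11558, and rose by 2.65 ± 0.37 (SE, limma adjusted p = 3.94e-05). Of 13 citric acid cycle genes 3 rose, with a median of 1.57: Cs, which makes citrate (1.99), Mdh2, which makes oxaloacetate (2.35), and Suclg1, of succinyl-CoA ligase (2.04). Of 23 assembly factors of complexes III and IV 4 rose, namely Coa3, Cox14, Cox17 and Uqcc2, with a median of 2.02. Among 11 transcriptional regulators only Tfb2m, a factor of mitochondrial transcription, was called, with 2.92 ± 0.57 (SE, limma adjusted p = 0.00136). Ppargc1a, the coactivator PGC-1alpha, was at 90.7, 34.3 and 54.6 in P1 and 3906, 153 and 458 in P2. Its groups did not overlap, but the P2 libraries were far apart and the estimate of 3.53 ± 1.52 (SE, limma adjusted p = 0.174) was not called. Genes beyond the respiratory chain were named here after their values were seen.

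The mitochondrial genome did not share the direction. All 13 of its protein-coding genes had estimates below 0 in muscle P2, from -1.27 to -0.82, and none was called. mt-Co1, the catalytic subunit of complex IV, was at 96738, 105937 and 94768 in muscle P1 and 58707, 51438 and 35228 in muscle P2, without overlap, at a log2 fold change of -1.06 ± 0.26 (SE, limma adjusted p = 0.00951). mt-Cytb, of complex III, had -1.27 ± 0.27 (SE, limma adjusted p = 0.00279). As a share of the library the 13 genes held 4.69% to 5.42% in P1 and 1.13% to 2.15% in P2.

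**Figure D4:**
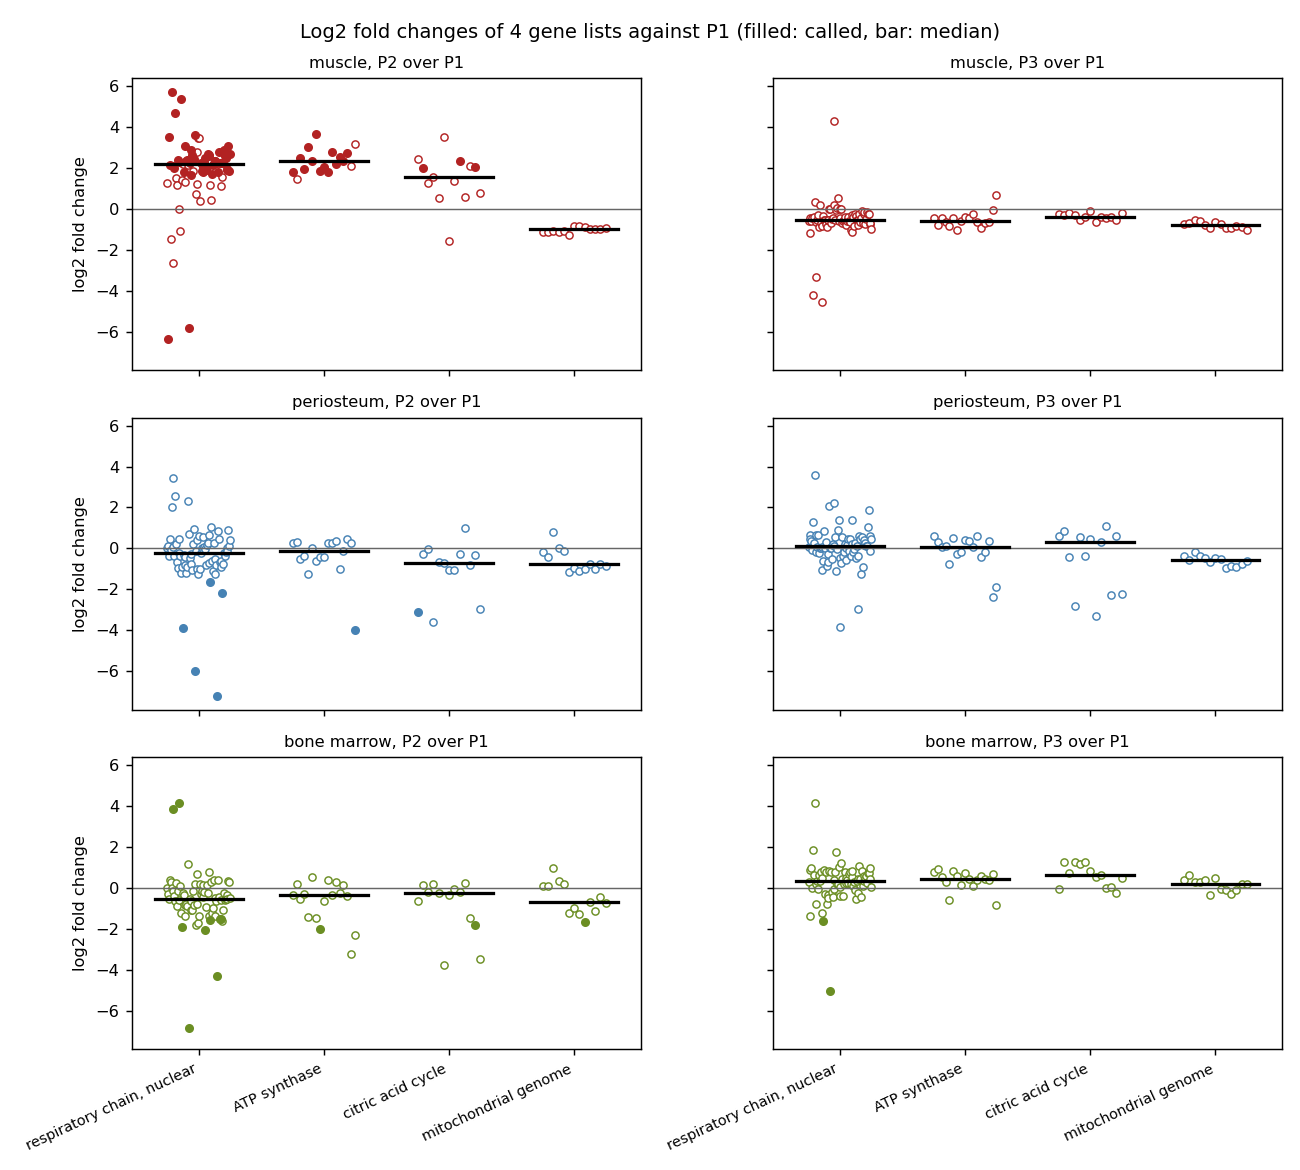
Log2 fold change of each gene over P1 of the same tissue for the nuclear respiratory chain genes, ATP synthase, the citric acid cycle and the mitochondrial genome, for P2 (left) and P3 (right), with filled points for called genes and a bar at the median. In muscle P2 the nuclear lists have medians of 1.57 to 2.34 while the mitochondrial genome is at -0.99, and in the other panels the medians lie between -0.79 and 0.63.

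In muscle P3, the CD105+ population, limma called 0 of the 74 genes against muscle P1, where 0.325% of all genes were called higher and 0.141% lower. An unadjusted p below 0.05 was found for 18 of the 74 genes and for 1140 of all 18442. With the fit restricted to muscle P1 and P3, 3 of the 74 genes were called. Estimates were below 0 for 66 of the 74, with a median of -0.54 against 0.07 for all genes, and complexes II, III and the common subunits of complex IV were below 0 in all of their 4, 8 and 10 genes. Cox5a was at 1051, 869 and 1031 in P3, Sdhb at 1745, 1337 and 1657 and Uqcrfs1 at 946, 874 and 983. Each of these was below its P1 range, with log2 fold changes of -0.44, -0.69 and -0.74. The other core subunits named were at -1.14 (Ndufs1), -0.25 (Ndufv1), -0.13 (Sdha) and -0.27 (Uqcrc1). The share of all genes with P3 entirely below P1 was not computed. Cox6a2 and Cox8b had the lowest estimates, -4.20 ± 1.24 (SE, limma adjusted p = 0.173) and -4.58 ± 1.42 (SE, limma adjusted p = 0.221), followed by Cox7a1 at -3.34 ± 1.30 (SE, limma adjusted p = 0.497). Endothelial genes (7 listed, Pecam1 and Cdh5 among them) held 0.290% to 0.417% of the library in P3 and 0.0157% to 0.0335% in P1. Of these 4 were called higher in P3, as were 4 of 10 erythroid genes, while 2 of 4 satellite cell genes were called lower. Their part in the values was not tested. P2 and P3 were compared with the same P1 libraries.

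In periosteum, P2 had 5 genes lower than P1 and none higher, where 10.1% of all genes were called lower and 8.96% higher, so the share of 74 genes called was below the background in both directions. The median log2 fold change was -0.25, with 0.00 for all genes. Ndufs8, an iron-sulphur subunit of complex I, was at 375, 77.5 and 117 in periosteum P1 and was listed at 0 in the 3 P2 libraries (limma adjusted p = 0.000404). Ndufaf1 was at 286, 49 and 182 in P1 and 0, 0 and 8.85 in P2, a log2 fold change of -6.01 ± 1.08 (SE, limma adjusted p = 0.000333). Ndufa10, a complex I subunit, was at 1357, 783 and 765 and 267, 0 and 937, and its estimate of -3.89 ± 1.31 (SE, limma adjusted p = 0.0375) was lost with a pseudocount of 0.1 (0.0531) and rested on the P2 library listed at 0, without which it was -0.90 (limma adjusted p = 0.193). The other 2 called genes were Sdhc (-2.19) and Ndufc2 (-1.63). None of the 5 was called when periosteum P1 and P2 were fitted alone, and 2 were called without periosteum P2 replicate 2 and 3 without periosteum P1 replicate 1 or replicate 2. Erythroid transcripts were high in the P2 libraries, and all 10 erythroid and 7 cell division genes were called higher there, while 7 of 8 mesenchymal genes were called lower. Of 15 muscle fibre genes 6 were also called higher there. Of 12 leukocyte genes 3 were called higher in P2. They summed to 0.418% of the library in periosteum P2 replicate 2, the library where Ndufa10 was listed at 0, and to as little as 0.00492% in the other P2 libraries, and their part in the values was not tested.

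Periosteum P3 had no called gene against P1 by limma, with 9 at an unadjusted p below 0.05 and a median of 0.10. Of all genes 2.79% were called higher and 1.39% lower. Uqcrc1 was at 1042, 963 and 760 in P1 and 1994, 2388 and 1383 in P3. These libraries did not overlap, but the log2 fold change of 1.04 ± 0.48 (SE, limma adjusted p = 0.265) was not called. Sdha was at 2781, 2000.01 and 2117 in P1 and 4411, 2636 and 3193 in P3, with overlap. All 7 endothelial genes were called higher in P3, with a median log2 fold change of 7.84, as were all 10 erythroid and 4 of 7 cell division genes, and 3 of 8 mesenchymal genes were called lower. Their part in the values was not tested. Without periosteum P1 replicate 1 or 3, P2 replicate 1 or 2, or P3 replicate 3, 1 or 2 genes were called.

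Bone marrow P2 had 2 genes higher and 7 lower than bone marrow P1. Of all genes, 23.7% were called higher and 10.4% lower, so the share of the 74 genes called was below the background in both directions. The median was -0.52, against 0.61 for all genes, which put the 74 genes at -1.14 relative to all genes. Ndufa4l2 had the largest fall, from 149, 208 and 175 in P1 to 0, 2.74 and 0 in P2, a log2 fold change of -6.83 ± 1.13 (SE, limma adjusted p = 7.02e-05). Ndufs8 fell from 80.5, 142 and 228 to 0, 11 and 28.2, or -4.30 ± 1.33 (SE, limma adjusted p = 0.0146), a call lost without P1 replicate 3 (limma adjusted p = 0.0556) or P2 replicate 1 (0.118). Ndufb5, a membrane arm subunit of complex I, fell from 1024, 1146 and 994 to 201, 441 and 188, or -2.04 ± 0.40 (SE, limma adjusted p = 0.000494). The remaining 4 that fell were Ndufa1 (-1.92), Ndufc2 (-1.57), Sdhb (-1.54) and Ndufv3 (-1.52), so that 5 subunits of complex I and 1 of complex II were among the 7. No gene of complex III and no common subunit of complex IV was called. Without bone marrow P2 replicate 3 the count was 5, and Sdhb, then at -1.35, was among the genes that no longer passed the fold threshold.

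The genes that rose in bone marrow P2 were both alternative subunits of complex IV known from testis. Cox7b2 was at 14.9, 11.2 and 28.5 in the P2 libraries and listed at 0 in all P1 libraries (limma adjusted p = 3.8e-06). It reached 10 in no library outside bone marrow P2, so it passed the filter only through the libraries in which it was then called higher. Its p-value is therefore not taken as support. The Cox7b2 call was lost after quantile normalization (limma adjusted p = 0.224). Cox6b2 was at 46.6, 18.8 and 76.4 in P1, 543, 815 and 517 in P2 and 424, 1006 and 933 in P3, with a log2 fold change of 3.87 ± 1.48 (SE, limma adjusted p = 0.0447) for P2. This call was lost without any 1 of the bone marrow P1 or P2 libraries, at limma adjusted p = 0.0594 to 0.144. It was also lost with a pseudocount of 0.1 (0.161), no filter (0.0527), a mean of at least 50 (0.056) and same totals (0.0583). Cox6b2 made up 12.9% to 17.5% of Cox6b2 plus Cox6b1 per kilobase in bone marrow P2, 8.79% to 12.9% in P3 and 0.454% to 1.98% in P1. In bone marrow P2 all 10 erythroid and all 7 cell division genes were called higher and all 8 mesenchymal genes lower. Of 15 muscle fibre genes 8 were called higher there, as were 5 of 7 endothelial genes. The part of these cells in the values was not tested.

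In bone marrow P3, 2 genes were lower and none higher than in P1, with 3.14% of all genes called higher and 3.46% lower. Ndufa4l2 was at 9.1, 14 and 0 in P3, a log2 fold change of -5.05 ± 1.13 (SE, limma adjusted p = 0.00536), and Ndufa1, a small complex I subunit, fell from 5322, 6030.5 and 4433 to 1256, 1977 and 2066, or -1.60 ± 0.33 (SE, limma adjusted p = 0.00288). Without bone marrow P3 replicate 3 the estimate for Ndufa4l2 was -3.84 (limma adjusted p = 0.0624), and without P1 replicate 2 or P3 replicate 1 that for Ndufa1 was -1.49 or -1.37. The other members leaned the other way, with 55 of 74 estimates above 0 and a median of 0.35 against 0.00 for all genes. All 4 subunits of complex II, all 8 of complex III and all 10 common subunits of complex IV were above 0. The total was 8631881 to 10307689 in the bone marrow P3 libraries, compared with 16749870 to 22029826 in P1. Scaling all libraries to the same total moved the median of all genes to 0.79 and that of the 74 genes to 1.31. In that scaling 22 of the 74 genes were called, 21 of them higher. Of all 18442 genes tested, 2070 were called, 1727 of them higher, compared with 1218 and 580 before scaling. Ndufa1 was then at -0.63 and no longer among the called genes. Relative to all genes the members moved from 0.35 to 0.52. In P3, 6 of 7 endothelial genes (median log2 fold change 5.55), 6 of 7 cell division genes and 4 of 10 erythroid genes were called higher than in P1 and 6 of 8 mesenchymal genes lower, and their part in the values was not tested.

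The change from P1 to P2 was then compared directly between tissues. Against periosteum, the muscle change was called higher for 47 genes and lower for 1, with 6.22% of all genes called higher and 5.70% lower. Against bone marrow it was higher for 54 and lower for 3, with 7.48% and 14.7% of all genes. The median differences were 2.30 and 2.74 for the 74 genes and -0.21 and -0.88 for all genes. The genes called lower were Ndufa4l2 against periosteum, and Cox6a1, Cox6b2 and Cox7b2 against bone marrow. Cox7b2 was listed at 0 in muscle P1, muscle P2 and bone marrow P1. It passed the filter only through the bone marrow P2 libraries, so its call is not taken as support. Estimates were below 0 for 8 of the 74 genes against periosteum and for 5 against bone marrow. Ndufa4l2 was at 765, 1099 and 1025 in periosteum P2 and thus did not share the low values of muscle P2 and bone marrow P2. Cox6a1 was at 7582, 11734 and 6213 in bone marrow P2, where it was at 6943, 6996 and 6493 in P1, in contrast to its lower values in muscle P2.

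**Figure D5:**
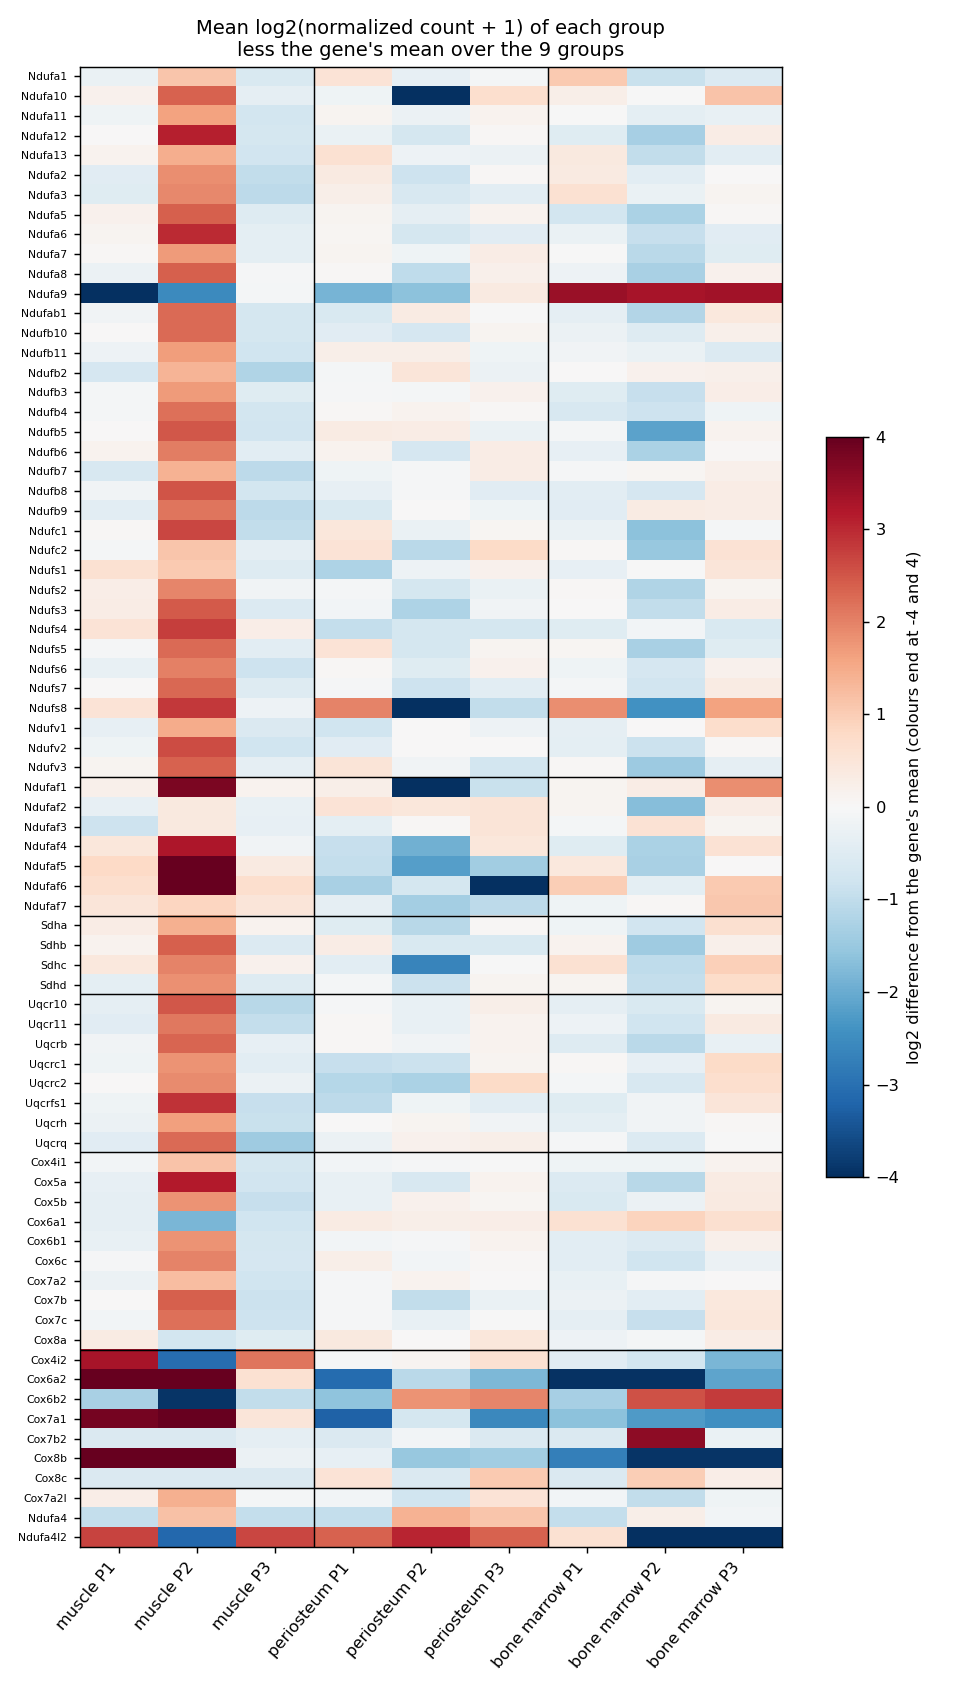
Mean log2(normalized count + 1) of the 75 genes in the 9 groups, less each gene's mean over the groups, with red above and blue below it and colours ending at 4 in each direction. Horizontal lines part complex I subunits, complex I assembly factors, complex II, complex III, common and restricted subunits of complex IV, and Ndufa4, Ndufa4l2 and Cox7a2l. By mean normalized count, not the log2 mean drawn here, 63 of the 74 genes tested were highest in muscle P2. Cox4i2, Cox6b2, Ndufa4l2, Cox6a1 and Ndufa9 are among the genes that are blue in the muscle P2 column.

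Between whole tissues, with the 3 populations weighted equally, few members were called. Muscle exceeded periosteum in 10 genes and was below it in 2, where 17.2% of all genes were called higher and 3.19% lower, and the medians of the 74 genes and of all genes were 0.57 and 0.56. Muscle exceeded bone marrow in 6 genes and was below it in 3, with backgrounds of 10.9% and 10.8% and medians of 0.66 and -0.10. Periosteum exceeded bone marrow in 2 and was below it in 3, with 4.01% and 16.8% and medians of 0.15 and -0.69. The marker lists differed between tissues too. Against periosteum, muscle had all 15 fibre and 7 endothelial genes called higher and all 10 erythroid and 6 of 7 cell division genes lower. Against bone marrow it had all 15 fibre, 6 of 8 mesenchymal and 6 of 7 endothelial genes higher, and all 10 erythroid, 12 leukocyte and 7 cell division genes lower. Periosteum had all 12 leukocyte, 7 of 10 erythroid and 3 of 7 cell division genes lower than bone marrow, and 5 of 8 mesenchymal genes higher. The part of these cells in the members' values was not tested. The shares of members called were below those of all genes in each direction of these comparisons. Cox6a2 was 7.30 ± 0.71 (SE, limma adjusted p = 9.72e-08) above periosteum on the log2 scale and 8.67 ± 0.71 (SE, limma adjusted p = 1.47e-09) above bone marrow. Cox8b was 5.69 ± 0.82 (SE, limma adjusted p = 2.1e-05) and 8.14 ± 0.82 (SE, limma adjusted p = 4.27e-08), and Cox7a1 6.44 ± 0.75 (SE, limma adjusted p = 1.33e-06) and 6.39 ± 0.75 (SE, limma adjusted p = 5.11e-07). Cox6a2 and Cox8b were listed at 0 in all 3 bone marrow P2 libraries. Cox8b was also above bone marrow in periosteum, at 2.45 ± 0.82 (SE, limma adjusted p = 0.0302), with a periosteum P1 library at 86.3 as its highest value there and a limma adjusted p up to 0.0731 under the alternatives.

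Single members set the tissues apart. Ndufa4l2 was at 958, 748 and 283 in periosteum P1, 765, 1099 and 1025 in P2 and 470.5, 737 and 579 in P3, and every periosteum library lay above every bone marrow library, with a log2 fold change of 5.93 ± 0.65 (SE, limma adjusted p = 3.66e-07). Muscle was 4.08 ± 0.65 (SE, limma adjusted p = 3.56e-05) above bone marrow and -1.85 ± 0.65 (SE, limma adjusted p = 0.0414) relative to periosteum. The difference from periosteum lay in P2, where the means were 32.1 and 963, whereas muscle and periosteum had means of 742 and 663 in P1 and 739 and 595 in P3. It was lost under many single-library omissions, with limma adjusted p up to 0.0806. Cox6a1 was lower in muscle than in bone marrow at -1.70 ± 0.14 (SE, limma adjusted p = 2.44e-09), and no muscle library reached the lowest bone marrow one. Cox6b2 was lower in muscle than in periosteum (-2.77 ± 0.86 (SE, limma adjusted p = 0.0206)) and bone marrow (-3.40 ± 0.86 (SE, limma adjusted p = 0.00389)). The call against periosteum was lost with a pseudocount of 0.1 (limma adjusted p = 0.0861) or with the compared groups alone (0.0735). Cox6b2 had close means of 47.3 in bone marrow P1 and 43.1 in muscle P1. The difference from bone marrow lay in P2 (625 against 30.6) and P3 (787 against 52.9). Periosteum had means of 135, 414 and 424 in P1, P2 and P3. The assembly factors Ndufaf1 (-2.90) and Ndufaf6 (-2.92) were lower in periosteum than in bone marrow, but not in every population. For Ndufaf1 the means in P1, P2 and P3 were 172, 2.95 and 133 in periosteum and 129, 163 and 440 in bone marrow. For Ndufaf6 they were 54.1, 134 and 0.667 in periosteum and 106, 53.5 and 120 in bone marrow. The Ndufaf6 call was lost after quantile normalization (limma adjusted p = 0.123) or with periosteum and bone marrow fitted alone (0.0633). Of the 7 assembly factors, 4 were higher in muscle than in periosteum.

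Some members could be read only in part. Ndufa9, a complex I subunit, was listed at 0 in 9 of 27 libraries, among them all muscle P1 libraries, whereas bone marrow P1 had 253, 179.98 and 248. It was lower in muscle (-5.70 ± 1.17 (SE, limma adjusted p = 0.000609)) and in periosteum (-4.42 ± 1.17 (SE, limma adjusted p = 0.00765)) than in bone marrow. Ndufa4, a subunit now placed in complex IV, was listed at 0 in 22 of 27 libraries and had at most 125 in the others. Both are needed in most tissues, so that a value listed at 0 is not taken as absence. Of the 50-base windows of Ndufaf2 transcripts 64.1% also occur in other genes, as do 31.6% for Ndufb6 and 28.5% for Ndufa13, so the counting could have split reads there. Cox7a1, Cox8b, Cox4i2 and Ndufa4l2 share no such window, and Cox6a2 shares 3.33%.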

How the data were processed

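Sorted P1, P2 and P3 cells from bone marrow, periosteum and muscle gave 27 libraries, 3 for each of 9 groups, grouped by the labels. The authors made the libraries with SMART-Seq v4 and Nextera XT kits, trimmed reads with Trim Galore, aligned them with STAR and used DESeq2 for counts. The genome build, annotation and counting tool are not given in the sources used here. The deposited table holds normalized counts (a signal value per gene, not whole numbers), so read depth is unknown, no counting error is given and no count model was fitted. Library totals ran from 8631881 to 26230908. A row for the transgenes (0.0047% to 0.213% of a library) was left out.

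Values were taken as log2(normalized count + 1), genes at 10 or more in at least 3 libraries were kept (18442), and limma 3.58.1 in R 4.3.3 (lmFit, eBayes with trend) was fitted with 1 mean per group, and the false discovery rate (Benjamini-Hochberg) was taken over all 18442 genes. Fold changes are differences between means of log2 values, not ratios of mean counts, and for low genes their size depends on the pseudocount. For Ndufa9 in muscle versus bone marrow the log2 fold change was -7.60 with a pseudocount of 0.1, -5.70 with 1 and -4.27 with 5. Such sizes are therefore not taken as lower limits. Isoform shares used exon lengths of GENCODE M21 and an exact permutation test in scipy 1.17.1. Sums and tables came from pandas 2.3.3 and numpy 2.4.6 in Python 3.11.15, and figures from matplotlib 3.10.9. The fit was tested on simulated data, in which most of the genes given a change were not called, so a gene not called is not shown to be unchanged.

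The members, gene lists and comparisons were chosen with earlier results of these data known. Named genes were the isoform pairs and Cox7a2l, 1 or 2 core subunits of each complex (Ndufs1, Ndufv1, Sdha, Sdhb, Uqcrc1, Uqcrfs1 and Cox5a) and, per comparison, the 3 called members with the largest change in each direction. Other genes named were chosen after their values were seen. Alternatives were pseudocounts of 0.1 and 5, no filter, a mean of at least 50, same totals, quantile normalization, a replicate block and each library left out, with the compared groups fitted alone added after the data were seen.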

Additional observations from a re-analysis of the deposited data

Results flagged for a closer look

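The change from P1 to P2 differed between tissues for many members, by the interaction term of the limma fit. Against periosteum 48 members were called and against bone marrow 57. Compared with periosteum, the log2 difference of the muscle change was 9.60 for Ndufaf1 and 9.50 for Ndufs8, complex I genes that were low or listed at 0 in periosteum P2, so that these sizes depend on the pseudocount. It was 6.60 for Cox8b and -6.51 for Ndufa4l2. Compared with bone marrow, the difference was 6.61 for Cox8b, 6.56 for Ndufs8 and 5.73 for Cox6a2, and it was -6.50 for Cox6b2, -4.16 for Cox7b2 and -1.75 for Cox6a1. Cox7b2 was listed at 0 in muscle P1, muscle P2 and bone marrow P1, and its value also depends on the pseudocount. It passed the filter only through the bone marrow P2 libraries.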

How the results depend on the processing

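Of 39 called results for named genes, 1364 alternative values were computed, of which 1270 kept the call, 94 lost it and 0 changed sign. In muscle P2 against P1 the count of 50 called members ran from 34 (same totals) to 56 (the groups alone). With the same total in every library the median log2 fold change of members was 1.58 in muscle P2 and -0.71 in periosteum P2. It was 0.43 in periosteum P3 and 1.31 in bone marrow P3. In periosteum P2, periosteum P3 and bone marrow P3, 9, 2 and 22 members were called. Of all 18442 genes tested, 3575, 908 and 2070 were called in these 3 comparisons. Quantile normalization gave a median of 1.68 in muscle P2. In muscle P3, 2 members were called with quantile normalization and 2 with a pseudocount of 5. In periosteum P3 a mean of at least 50 gave 1 called member and the replicate block gave 1. Fitting only the groups compared gave 3 called members for periosteum versus bone marrow, 3 for muscle P3, 0 for periosteum P2 and 4 for bone marrow P3. Each of these comparisons is with P1 of the same tissue unless named otherwise, and the causes were not tested.

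With 1 library left out, called members numbered 2 to 7 in periosteum P2 (lowest without periosteum P2 replicate 2), 0 to 2 in periosteum P3, 5 to 11 in bone marrow P2 (lowest without bone marrow P2 replicate 3) and 1 to 3 in bone marrow P3 (1 without bone marrow P1 replicate 2, P3 replicate 1 or P3 replicate 3). The excess of the muscle P2 share ran from 87.1 to 90.3 points for Cox6a2, 58.7 to 65.9 for Cox7a1 and 84.3 to 86.8 for Cox8b. With only 2 P2 libraries the exact test cannot pass 0.05. Libraries sharing a replicate number did not deviate together (mean r = 0.000242, from -0.0592 to 0.0502 over 36 group pairs), and 10 of 27 libraries correlated best with their own number. The replicate block left the count of muscle P2 at 50, and among named genes it ended the call of Cox6b2 in bone marrow P2 (limma adjusted p = 0.0519).

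Read depth is unknown, which limits low members such as Ndufa4, Ndufa9, Ndufs8 and Cox7b2, and the wide spread in periosteum enters the shared estimate of error of every comparison.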
